A study of Caenorhabditis elegans with 2 samples.

Results

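A set of 10 genes that hold cells in G1 or release them into S phase was examined for sites of EGL-43, a zinc finger transcription factor that keeps the anchor cell of the worm gonad in G1 arrest. They are the listed G1 cyclins, cyclin-dependent kinases, inhibitors and Rb pathway genes, 10 of 19973 protein-coding genes, and form a named list by function, with no peak value in the rule. The inhibitory side has 6 members (cki-1, cki-2, lin-35, efl-1, fzr-1 and cdc-14) and the driving side 4 (cyd-1, cdk-4, cye-1 and cdk-2). The data are peak lists from chromatin immunoprecipitation and sequencing with an antibody to GFP. The material was whole L4 larvae of Caenorhabditis elegans strain RW12181, in which a CRISPR insertion (st12181) on chromosome II fused TY1, EGFP and 3xFLAG to egl-43. Larvae were hatched after bleaching, held as starved L1 larvae, and collected at 49 hours. There was 1 group with 2 biological replicates, and both carry the tagged allele. No untagged worms and no control library were analysed here, so the signal that the same worms would give without the tag is not known. Both replicates are of this 1 strain. The larvae were not dissected, and the anchor cell is 1 of the many cells of each. A site used in few cells and a weak site used in many cannot be told apart in these lists, which also hold no expression values with which to check cell types.

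In worms, as in mammals, passage from G1 into S phase is driven by cyclin D with its kinase (cyd-1, cdk-4) and by cyclin E with its kinase (cye-1, cdk-2). Inhibitors of the CIP/KIP family (cki-1, cki-2) block the kinases. The Rb relative LIN-35 acts with E2F factors such as EFL-1 to keep S phase genes silent until the kinases phosphorylate it. FZR-1, the Cdh1-type activator of the anaphase promoting complex, and the phosphatase CDC-14 also restrain entry into S phase. The anchor cell, which breaches basement membranes to join uterus and vulva, has to be arrested in G1 to invade, and cki-1 is the inhibitor best known for this arrest.

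Each gene was given a window from 2 kb upstream of its annotated start to its annotated end, and a peak counts for the gene when its summit lies in the window. The thresholded lists hold peaks with an irreproducible discovery rate (IDR) score of at least 830, which corresponds to a global IDR of about 0.0100. The ranked lists hold all peaks that could be paired, most of them far below that score. A peak of the series thresholded list is called a site below, and a peak of another thresholded list is called a site of that list. Peak signals are the authors' values, and each is read only against the list it comes from. The number of reads behind a value is unknown, so no interval can be given for a signal. The series thresholded list held 3146 peaks with a median signal of 140. A second series list, named conservative by the authors, held 3024 peaks. The lists of replicates 1 and 2 held 1532 and 1621 peaks, with median signals of 99.3 and 101.

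The sequences at 3 summits are given, those in the promoter of the E2F gene efl-1, at the far upstream site of fzr-1 and at the intronic peak of cyd-1. The cyd-1 peak is not a site of the series list. The sites of the driving genes cye-1 and cdk-2 are not shown. Each is the ce11 plus strand, 101 bases centred on the summit (for cyd-1 that of replicate 2, the only thresholded list with a peak there), read from the RefSeq genome. Capitals mark a match to the E2F site TTTCCCGC, here read on the minus strand, which is the coding strand of efl-1.
efl-1, chrV:16965816-16965916: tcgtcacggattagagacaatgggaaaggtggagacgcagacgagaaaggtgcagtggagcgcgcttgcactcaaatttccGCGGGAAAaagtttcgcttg
fzr-1, chrII:9646270-9646370: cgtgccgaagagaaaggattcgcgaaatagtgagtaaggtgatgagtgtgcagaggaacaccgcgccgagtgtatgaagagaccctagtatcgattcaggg
cyd-1, chrII:12987958-12988058: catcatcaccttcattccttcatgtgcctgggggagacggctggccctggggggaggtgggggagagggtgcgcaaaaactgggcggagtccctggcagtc

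The efl-1 match lay at positions 82 to 89 of its window, 34 bp from the summit and 222 bp upstream of the gene. Among all 3146 peaks of the series list, 0.699% (22 peaks) held TTTCCCGC within 50 bp of the summit on either strand. The efl-1 site was the only member site to hold it, and TTTGGCGC, another E2F site at 0.699% of peaks, was at none. The short site AGATAA of the first zinc finger domain of mammalian EVI1, the relative of EGL-43, was within 50 bp of 1.84% of summits and of none of the 6 member sites. The site of its second zinc finger domain, GAAGATGAG, was at 0.254% of peaks and no member site. The AP-1 site TGACTCA was at 0.763% of peaks and also at no member site. An E-box, CANNTG, was at 2 of the 6 member sites, those of lin-35 and the cye-1 intron, and at 34.9% of all peaks, and the cyd-1 sequence above holds one as well. The GC content of the 6 member windows ran from 42.6% to 56.4% with a median of 52.5%, which is also the median over all 3146 peaks. The cyd-1 window, which is not among the 6, had 64.4%.

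In the series thresholded list, sites were found at 5 of the 10 genes, lin-35, efl-1, fzr-1, cye-1 and cdk-2, with 6 summits in all because cye-1 has a pair. Of all protein-coding genes, 13.6% had a site by the same rule, and of those whose window was as long as a member's (2866 to 14527 bp) 13.4% had one. Longer windows hold a site more often. Among genes with a window within 20% of a member's length, the share with a site ran from 9.70% for the length of cki-1 to 29.7% for that of cyd-1. The sites fell on both sides of the G1 decision, at 3 of 6 inhibitory genes and 2 of 4 driving genes. The member windows cover 73.9 kb and held 81.2 summits per Mb, against 32.5 per Mb over the windows of all protein-coding genes. No test was made of these counts, since the genes were chosen with earlier results known and there is only 1 group.

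**Figure D1:**
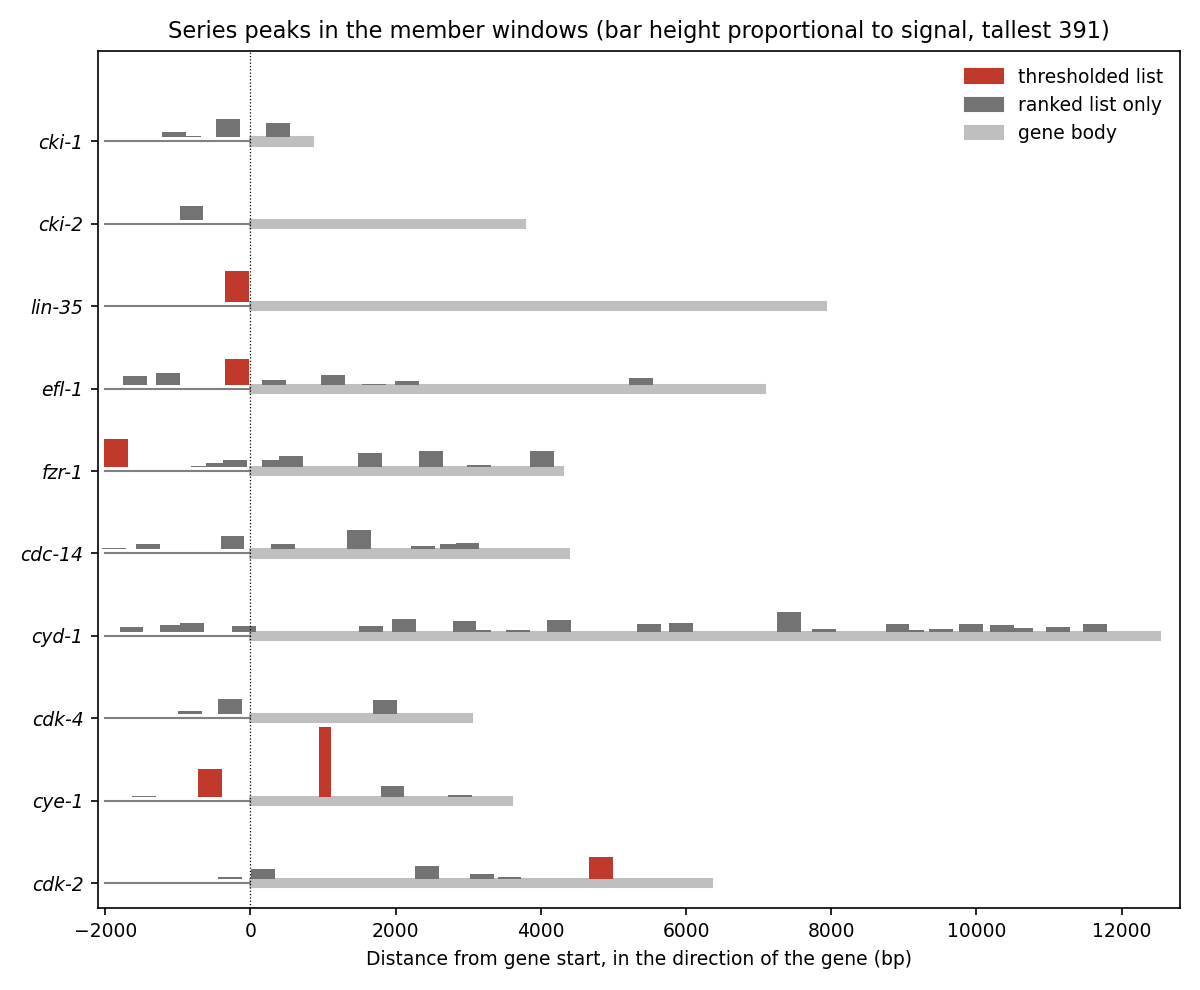
Peaks of the series lists across the window of each gene, by distance in bp from the gene start (upstream is negative); red bars are sites of the thresholded list, dark grey bars are peaks of the ranked list alone, and bar height is proportional to signal. The tallest bar, with a signal of 391, lies 1030 bp into cye-1, inside a tRNA gene. The windows of cki-1, cki-2, cdc-14, cyd-1 and cdk-4 have grey bars only.

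The cyclin-dependent kinase inhibitors, the genes most directly tied to the arrest, had no site in any thresholded list. Most genes with a window within 20% of theirs in length also lacked a series site. Only 9.70% carried one at the window length of cki-1, and 15.2% at that of cki-2. The lack of a site therefore does not set these inhibitors apart from most genes. The strongest ranked peak of cki-1 lay 304 bp upstream of the gene (chrII:7810771-7811100). It had a signal of 99.6 in the series list, 33.0 in replicate 1 and 47.9 in replicate 2, and its IDR scores were 659, 164 and 607. All 3 scores were under 830, the lowest in replicate 1, and the series global IDR was 0.0258. There were 4 ranked peaks in the cki-1 window, with series signals from 4.53 to 99.6. The nearest site outside the window was 51.8 kb beyond it, 632 bp upstream of ostb-1, with a signal of 120.

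The other inhibitor gene, cki-2, had the lowest series value of the set. Its only ranked peak in the series list lay 812 bp upstream (chrII:7815522-7815851), within an annotated noncoding RNA gene, T05A6.19. The signal was 78.3 in the series list, 34.1 in replicate 1 and 43.2 in replicate 2, and the scores were 249, 188 and 98. These are far below the threshold in every list, with a global IDR of 0.251 in the series. The nearest site was the same ostb-1 site, 43.6 kb past the window.

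At lin-35, the worm Rb gene, a site lay just upstream of the start. The peak chrI:5807357-5807686 had its summit 187 bp upstream of the gene and a signal of 175, rank 924 of 3146. The replicate 1 signal was 134 with a score of 1000, and the replicate 2 signal was 45.5 with a score of 349. The site was therefore in the replicate 1 thresholded list, at rank 417 of 1532, and not in that of replicate 2. It was also missing from the conservative series list, where its score was 713 and its global IDR 0.0192. The window of the neighbouring gene vps-51, which encodes a vesicle tethering subunit, holds the same summit, but the nearest start site is that of lin-35.

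The E2F gene efl-1 had a site in nearly the same place relative to its start. The peak chrV:16965701-16966030 had its summit 191 bp upstream, with a signal of 141 and rank 1527 of 3146. It had a signal of 80.1 and a score of 907 in replicate 1, and 55.6 and 207 in replicate 2. As at lin-35, only the replicate 1 thresholded list held it, but the conservative list kept it with a score of 979. The F-box gene fbxa-90 has a window that reaches the same summit.

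The site counted for fzr-1 lay near the far edge of its window. The peak chrII:9646155-9646484 had its summit 1854 bp upstream of fzr-1 and only 658 bp upstream of sqv-8, which encodes a glucuronosyltransferase of glycosaminoglycan synthesis. Its signal was 155 in the series list, 80.2 in replicate 1 and 75.6 in replicate 2, with scores of 1000, 856 and 841. It passed in both replicate lists, though close to the threshold of 830 in each. The summits of the 3 lists lay within 14 bp of the series summit. With 1 kb upstream in place of 2 kb, or with each summit given only to the nearest start, fzr-1 no longer has a site.

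The phosphatase gene cdc-14 had none. Its strongest ranked peak lay in a coding exon, 1498 bp into the gene (chrII:5591764-5592093), with a signal of 109 in the series list, 64.2 in replicate 1 and 42.2 in replicate 2. The scores were 616, 622 and 107, so replicate 1 came nearest to the threshold. The nearest site outside lay 11.8 kb beyond the window, inside a tRNA gene, with a signal of 303.

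Among the genes that drive S phase entry, cye-1 carried the strongest site of the set. The peak chrI:6781749-6781912, 164 bp wide, had a signal of 391 and rank 154 of 3146. Replicates 1 and 2 gave signals of 197 and 191, at ranks 160 of 1532 and 188 of 1621, with the highest possible score of 1000 in all 3 lists. The summit lay in an intron, 1030 bp into cye-1, and inside the gene of a cysteine tRNA on the same strand (chrI:6781803-6781874, 72 bp). Of all series sites, 8.07% had the summit inside a tRNA gene, and 14.3% had a tRNA, snoRNA or snRNA gene within 500 bp. Among the member sites this was the only such case, 1 of 6. The part of the tRNA gene in this peak was not tested.

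The other cye-1 site lay upstream, away from small RNA genes. The peak chrI:6780074-6780403 had its summit 560 bp upstream of cye-1 and 88 bp upstream of a start of pqn-21, whose product has a glutamine and asparagine rich domain. The signal was 155 in the series list at rank 1202, 63.8 in replicate 1 and 95.0 in replicate 2, with scores of 1000, 674 and 1000. The replicate 2 thresholded list held it and that of replicate 1 did not. Without sites that have a small RNA gene within 500 bp, an alternative chosen after seeing the data, cye-1 still had this site. The count stayed at 5 of 10, against 12.1% of all protein-coding genes.

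At cdk-2, which encodes the kinase partner of cyclin E, the site lay deep in the gene. The peak chrI:3414678-3415007 had its summit in a coding exon 4830 bp from the gene start, and 1831 bp past the nearest annotated start of a cdk-2 transcript. It was the weakest of the 6, with a signal of 122 and rank 2242 of 3146. The replicate signals were 58.1 and 68.8, with scores of 572 and 649. Neither replicate's own thresholded list held it, whereas the series list and the conservative list did, with a score of 1000 in both.

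The cyclin D gene cyd-1 showed the reverse case, a peak past the threshold in 1 replicate and not in the series. The strongest ranked peak of its window, chrII:12987846-12988175, lay in an intron 7420 bp into the gene and 212 bp upstream of an internal cyd-1 start. Its signal was 110 in the series list, 31.2 in replicate 1 and 80.3 in replicate 2. The scores were 816, 40 and 993, so that the series peak fell just short of 830, with a global IDR of 0.0108, while the replicate 1 score was the lowest that its ranked list holds. In the conservative list the score was 326. The cyd-1 window is the longest of the set and held 22 ranked peaks, with a median signal of 37.5.

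The gene of its kinase partner, cdk-4, had no site. The strongest ranked peak lay 277 bp upstream (chrX:13519023-13519352), with a signal of 83.5 in the series list, 31.1 in replicate 1 and 53.9 in replicate 2, and scores of 554, 137 and 626. A site with a signal of 137 lay 1.33 kb past the end of the gene, 3426 bp upstream of the nearest start, that of the collagen gene col-185. It is the nearest site outside any member window.

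**Figure D2:**
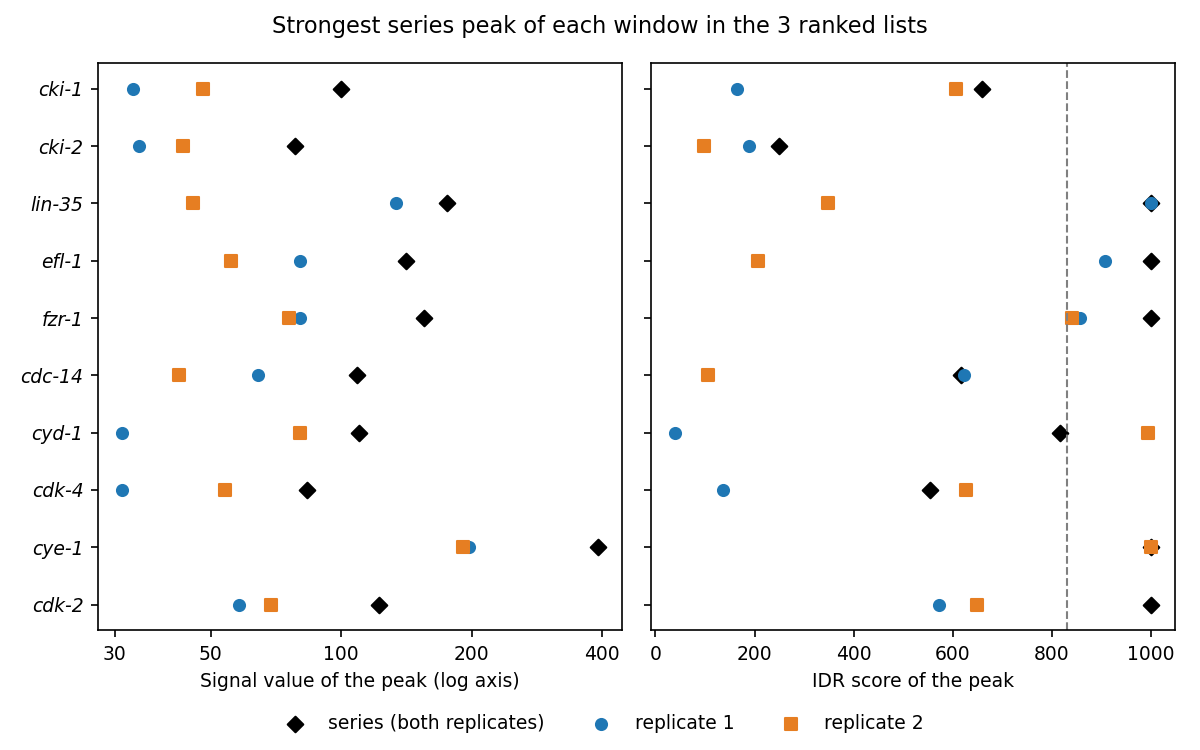
Signal value (left, log axis) and IDR score (right) of the strongest series peak in each gene window, with the overlapping peak of the replicate 1 and replicate 2 ranked lists; the dashed line is the score of 830. For fzr-1 and cye-1 all 3 points are at or beyond the line, for lin-35 and efl-1 the replicate 2 point is far to its left, and for cyd-1 only the replicate 2 point is beyond it.

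Read by replicate, sites were found at 4 of the 10 genes in replicate 1 (lin-35, efl-1, fzr-1 and cye-1) and at 3 in replicate 2 (fzr-1, cyd-1 and cye-1). The shares over all protein-coding genes were 7.11% and 7.42%. Only fzr-1 and cye-1 had a site in both, against 4.86% of all genes. In the conservative list 4 of 10 had a site, against 13.1%. By site, 4 of the 6 series sites overlapped a peak of the replicate 1 list and 3 one of the replicate 2 list, where 42.5% and 47.1% of all series sites did so. The replicate 1 sites covered the inhibitory side (3 of 6 genes) more than the driving side (1 of 4), and replicate 2 had 1 of 6 and 2 of 4. With 2 libraries this difference between the replicates was not tested.

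Ranked peaks were present at every member. All 10 genes had at least 1 in the series ranked list, where 59.1% of protein-coding genes did, and in those of replicate 1 (65.2%) and replicate 2 (61.9%). Of the 92 other cell cycle genes described below, 79 (85.9%) also had a ranked peak in the series list. The strongest ranked peak in the window had a median signal of 116 over the 10 genes, from 78.3 at cki-2 to 391 at cye-1. Over the 11806 genes with a ranked peak the median was 81.8. The member windows were longer, with a median of 6350.5 bp against 4027 bp for all protein-coding genes. A longer window can hold more peaks, and no median signal was taken for genes of like window length. The order from the top was cye-1, lin-35, fzr-1, efl-1, cdk-2, cyd-1, cdc-14, cki-1, cdk-4 and cki-2, and the series list gives no spread for it. In the replicate lists, by the strongest peak of each window, cye-1 was also above lin-35, fzr-1 above efl-1 and cdk-4 above cki-2 in both. Every other pair of neighbours in the order was turned round in at least 1 replicate. The place of cye-1 in all 3 lists is set by its summit inside the cysteine tRNA gene. Its upstream site had 155 in the series list, 63.8 in replicate 1 and 95.0 in replicate 2. The lin-35 site had 175, 134 and 45.5. By the tRNA gene summit, cye-1 was above 98.6% of genes with a ranked peak. The value at lin-35 was above 92.3%, cki-1 above 68.4% and cki-2 above 45.4%. In the replicate 1 list the medians were 61.2 for the members and 42.8 for all genes. In replicate 2 they were 54.8 and 45.7, and there lin-35 was above only 49.6% of genes, against 96.6% in replicate 1.

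**Figure D3:**
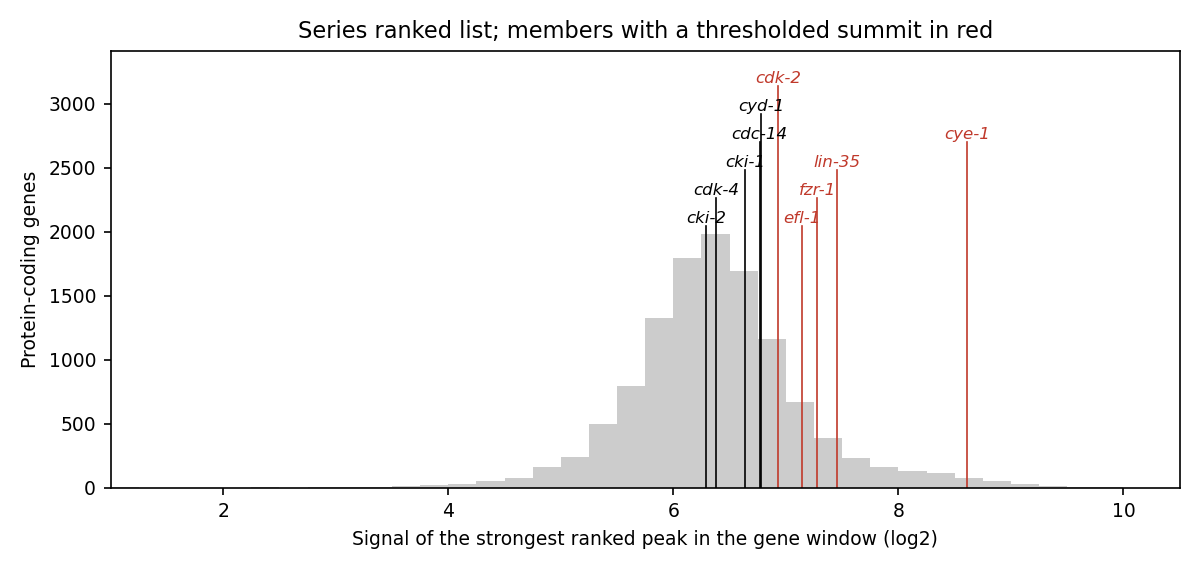
Distribution over protein-coding genes of the signal of the strongest ranked peak in the gene window (series list, log2 scale), with the 10 members marked; those with a site in the series list are in red. The members without one lie above 45.4% to 75.5% of the genes. By its summit inside a tRNA gene, cye-1 lies in the upper tail, above 98.6%.

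The summits of the 6 sites were often shared with a neighbour. The windows of other genes held 5 of the 6, all but that of cdk-2, where 29.8% of the sites in any gene window lay in more than 1. The nearest start site belonged to the member for 4 of the 6, the exceptions being the fzr-1 site and the upstream cye-1 site. By gene, 4 of the 5 members with a site kept one by the nearest start. Among all protein-coding genes, 1962 of the 2720 with a site did so. Upstream of the gene start lay 4 sites, 1 lay in an intron and 1 in a coding exon. No share of all series sites was taken for these places. The signal was at or above the median of the series list for 5 of the 6, the exception being cdk-2.

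The same count was made for 92 other cell cycle genes in 8 lists by role. A site was found at 25 of the 92 (27.2%), against 13.6% of all protein-coding genes. With each summit given only to the nearest start site, 12 of the 92 had one, against 9.82% of all genes. The windows of the 92 had a median length of 4829.5 bp, against 4027 bp for all genes, and no share was taken for genes of like window length. Replicate 1 had a site at 11 of the 92, against 7.11% of all genes, and replicate 2 at 13 of the 92, against 7.42%. In the list of E2F, Rb and DREAM complex genes, the partners of lin-35 and efl-1, 5 of 12 had a site. These were lin-9 (signal 342, summit 137 bp upstream), lin-54 (322, 364 bp upstream), lin-53 (296, also upstream), lin-52 (144, 503 bp upstream) and lin-15B (112, 394 bp upstream). The first 4 had a site in both replicate lists, and lin-15B only in that of replicate 2. DREAM represses cell cycle genes together with LIN-35, and LIN-9, LIN-52, LIN-53 and LIN-54 are subunits of it. For lin-52, lin-53 and lin-54 the nearest start site belonged to a neighbour, namely ZK632.9, nra-2 and the ribosomal protein gene rpl-12.

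The other lists had fewer genes with a site in both replicates, and their series shares, from 16.7% to 36.4%, stand against 13.6% of all genes. In replicates 1 and 2, where all genes had 7.11% and 7.42%, ubiquitin ligase genes had 0% and 9.09%. Kinases and phosphatases that act on Cdks had 0% in each, replication licensing 7.14% in each and S phase synthesis 10% in each. Other cyclins and kinases had 15.4% and 23.1%, and the spindle checkpoint and mitosis list 16.7% and 8.33%. Among ubiquitin ligase genes 4 of 11 had a site in the series list, at zyg-11 (143), lin-23 (142), cul-1 (130) and rbx-1 (129). Of 10 S phase synthesis genes 3 had one, at pcn-1 (252, 239 bp upstream), which encodes the replication clamp, at rnr-2 (126) and at pri-2 (113). Only pcn-1 of these 7 genes was in both replicate lists. Of 13 other cyclins and kinases 3 had one, at cya-1 (273), cdk-5 (174) and cdk-12 (141 and 117). The spindle checkpoint and mitosis list had 3 of 12, at mdf-2 (458 inside a tRNA gene, and 149 near its start), mdf-1 (148) and ify-1 (132). Replication licensing had 3 of 14, at mcm-7 (128 at each of a pair of summits), orc-2 (128) and orc-3 (126). The anaphase promoting complex, which FZR-1 activates, had 2 of 12, at gfi-3 (327 inside a tRNA gene, and 159) and fzy-1 (113). A snoRNA gene also lay within 500 bp of the stronger gfi-3 summit. The share for this complex was 16.7% in the series list and 8.33% in each replicate, near the 13.6%, 7.11% and 7.42% of all genes. Kinases and phosphatases that act on Cdks had 2 of 8, at plk-1 (134) and cdc-25.2 (109). The nearest start site belonged to the gene itself for 12 of the 25 genes, against 1962 of all 2720 protein-coding genes with a site. The 12 include cdc-25.2, whose summit lay 1303 bp upstream of the gene. It was 11918 bp upstream of the nearest start of a protein-coding transcript.

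**Figure D4:**
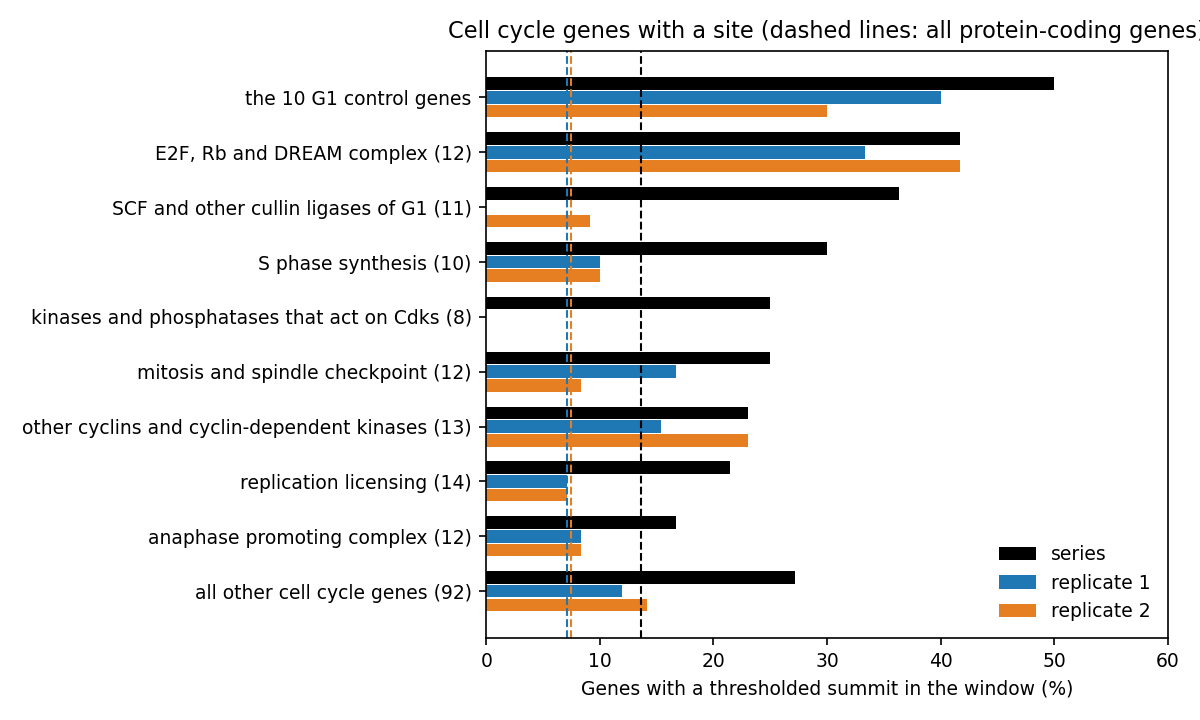
Percentage of genes with a thresholded summit in the window, for the 10 G1 control genes and for the lists of other cell cycle genes (number of genes in brackets), in the series, replicate 1 and replicate 2 lists; dashed lines give the shares of all protein-coding genes, 13.6%, 7.11% and 7.42%. The E2F, Rb and DREAM list is at 41.7% in the series list, with 33.3% and 41.7% in the replicates.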

How the data were processed

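Peak lists of 2 biological replicates of 1 group were analysed in ce11 coordinates, the assembly named by the labels. The score that the authors deposited is the IDR score, and the signal value of each peak is also the authors' deposited value, of unstated scaling, and so is the offset of its summit. The −log10 of the global IDR was deposited by the authors in the ranked lists. Aligner and peak caller: not given in the sources used here. In the 2 series ranked lists, 16 columns that no name ties to a replicate were not used, and replicate values came from each replicate's own lists.

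Genes and start sites were taken from Ensembl release 115 (WBcel235, the same coordinates), without mitochondrial genes. Overlapping peaks were matched by the nearest summit. Counts used Python 3.11.15 with pandas 2.3.3, and the window assignment was tested on simulated data. All 10 members were named, and so were every other cell cycle gene with a site, neighbours whose start was nearer to a member site, and the nearest site outside each window. Members, lists and motifs were chosen with earlier results of these data known. No test was made, because 1 group with 2 replicates allows none.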

Additional observations from a re-analysis of the deposited data

How the results depend on the processing

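The count of members with a site was 3 with the replicate 2 list alone and 4 with the replicate 1 list alone, against 5 in the series list. The share of all protein-coding genes then ran from 7.11% to 7.42%, against 13.6%, and the other cell cycle genes with a site from 11 to 13, against 25. With only peaks at or above the median signal, 4 members had a site, with 7.57% of all genes and 13 other cell cycle genes. With each summit given only to the nearest start site, 4 members, 9.82% of all genes and 12 of the 92 other cell cycle genes had one. With other windows or any overlapping base, with the conservative list, with all ranked peaks past the same score, or without sites near small RNA genes, the members' count was 4 or 5 and the share of all genes ran from 9.32% to 19.1%. The members lost differed, namely lin-35 in the conservative list, fzr-1 with 1 kb upstream, and cdk-2 with the window ended 500 bp past the gene start. The median signal setting also lost cdk-2, and the nearest start setting also lost fzr-1. All 10 members had a ranked peak under every alternative run. The depth of the libraries is unknown, so a member without a site may have one that was not detectable at this depth. No paired analysis was possible because all worms form 1 group.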

Other observations

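The nearest sites outside the windows of the other members were as follows. For lin-35 it lay 55.1 kb beyond the window, with a signal of 161, 829 bp upstream of vpr-1. At cyd-1 the distance was 23.5 kb, to an intron of max-2, with a signal of 239. The site next to cye-1 lay 15.2 kb away, with a signal of 165, 38 bp upstream of C37A2.8. That next to cdk-2 lay 11.4 kb away, in an intron of neto-1, with a signal of 105. For efl-1 the distance was 7.37 kb, to a site with a signal of 116 upstream of the lectin gene clec-238. For fzr-1 it was 6.05 kb, to a site with a signal of 142 upstream of ZK1307.7.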
